A study of Homo sapiens with 6 samples.

Results

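Translesion synthesis and damage-tolerance genes were examined in NCI-H520 cells treated with cisplatin. The set holds 9 genes: POLH, REV1, REV3L, MAD2L2, POLK, POLI, POLQ, PRIMPOL and RAD18. They were chosen by name for their known roles, with earlier results of these data known. They are 9 of the 61552 genes listed. NCI-H520 is a human line derived from a lung squamous cell carcinoma, given as WT in genotype and grown with 15% fetal bovine serum. The 3 cisplatin libraries come from cells given 2 µM cisplatin for 48 hours, and the 3 PBS libraries from cells given PBS for the same time. Both groups are the same single line, and no other line or dose was included. The labels do not say whether replicates were separate cultures, so p-values measure the spread between these libraries, which may be technical.

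Translesion synthesis lets a replication fork pass a damaged base that the replicative polymerases cannot copy. RAD18 ubiquitinates the sliding clamp PCNA at a stalled fork, low-fidelity polymerases are recruited to insert a base opposite the lesion, and polymerase zeta, with REV3L as its catalytic subunit, extends the new end. Cisplatin joins neighbouring purines within a strand and also links the strands of the helix, and polymerase eta (POLH), REV1 and polymerase zeta are the polymerases best known for bypassing these adducts. PRIMPOL restarts synthesis beyond a lesion by repriming, and polymerase theta (POLQ) joins broken ends through short homologies.

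Library totals ran from 9925330 to 16724300 expected counts with cisplatin and from 9121180 to 15589900 with PBS. The squamous label was only partly borne out by its markers: 6 of 10 passed the filter on low counts, SOX2 among them, while TP63, KRT14 and PKP1 stayed under 10 counts and DSG3 was at 0 in every library. Summed squamous markers were 361 to 401 CPM (counts scaled to a common library total, here with TMM) with cisplatin and 315 to 359 CPM with PBS. This sum was mostly SOX2 (323 CPM with cisplatin and 309 CPM with PBS in the mean). Of the 6 squamous markers tested, 3 were called higher: S100A2, TRIM29 and CDH3. Their log2 fold changes were 1.43, 1.29 and 0.64 (edgeR adjusted p = 0.00219, 3.51e-05 and 0.00115). SOX2, KRT5 and KRT6A did not pass the test. Lung adenocarcinoma and neuroendocrine markers summed to 15.1 to 16.3 CPM with cisplatin and 13.4 to 16.8 CPM with PBS. Of the 3 that passed the filter, NKX2-1 was called higher (log2 fold change 0.81, edgeR adjusted p = 0.00218), and SYP and INSM1 did not pass the test. Fibroblast markers summed to 23.0 to 24.5 CPM with cisplatin and 10.5 to 15.3 CPM with PBS, leukocyte markers to 3.74 to 4.58 CPM with cisplatin and 1.90 to 2.30 CPM with PBS, and PTPRC and CD3E were at 0 in every library. The fibroblast sum was mostly COL1A1 (22.3 CPM with cisplatin and 12.7 CPM with PBS in the mean), the other 5 markers staying under 10 counts. Of the leukocyte markers LYZ was higher and CD14 lower (log2 fold changes 1.84 and -0.98, edgeR adjusted p = 2.56e-04 and 0.0467). Epithelial markers summed to 2761 to 2929 CPM with cisplatin and 2269 to 2438 CPM with PBS, and 5 of 6 were called higher. The part of these markers in the results was not tested. Genes of 4 kb and over held 15.4 ± 0.178% of counts with cisplatin and 18.4 ± 1.03% with PBS (SD, n = 3 each). Changes by length are given below, and the part of length in each was not tested.

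None of the 9 genes was higher with cisplatin, and 3 were lower: REV3L by 1.52-fold, POLK by 1.47-fold and REV1 by 1.30-fold. POLH, POLI, MAD2L2, POLQ, PRIMPOL and RAD18 did not pass the test. All 9 passed the filter on low counts. The test was the quasi-likelihood test of edgeR, and its p-values were adjusted over 15063 genes (Benjamini-Hochberg). Under that test 19.3% of all genes were lower with cisplatin and 18.9% were higher, so the 3 lower genes stand against a background in which 38.2% of genes changed. The count of 0 higher genes was also 0 at an unadjusted p under 0.05, 0 with DESeq2 and 0 with limma-voom. In 4 of the 9 (REV1, REV3L, POLK and RAD18) every cisplatin library was below every PBS library, as in 24.5% of all genes, and in 0 every cisplatin library was above, as in 25.2%. The median log2 fold change of the 9 was -0.19, beside -0.00035 over all genes. In bulk RNA, fewer cells expressing a gene and less RNA per cell cannot be told apart.

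**Figure D1:**
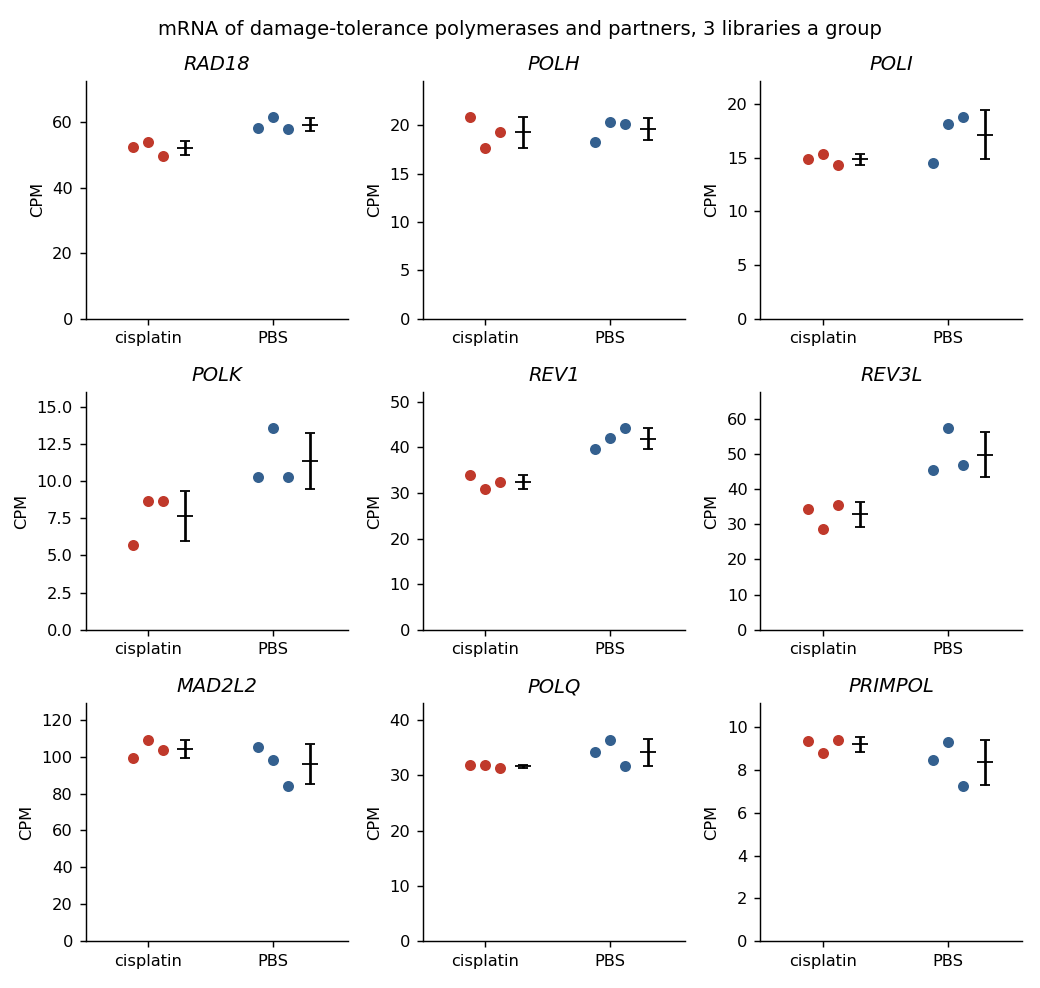
TMM-scaled counts (CPM) of each of the 9 genes on the vertical axis, 1 point per library, with bars for the mean and SD of the 3 cisplatin and 3 PBS libraries. The cisplatin points lie wholly below the PBS points for REV1, REV3L, POLK and RAD18 and are intermixed for the other genes.

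The start regions of REV3L, REV1 and POLK, picked because these genes were called lower, and of POLH are shown. The part of these sequences in the changes was not tested. Each is the 250 bases before an annotated start, from RefSeq on GRCh38.p14, written 5′ to 3′ on the gene's strand. Capitals mark matches on either strand to the GC box GGGCGG, the CCAAT box CCAAT, the ETS core CGGAAG, the E2F core GCGGGAA, the NRF1 core (GCGCA, any base, then GCGC) and the E box CACGTG. No matches of different motifs overlapped in the promoters of the 9 genes.
REV3L, first start, chr6:111483712-111483961, minus strand: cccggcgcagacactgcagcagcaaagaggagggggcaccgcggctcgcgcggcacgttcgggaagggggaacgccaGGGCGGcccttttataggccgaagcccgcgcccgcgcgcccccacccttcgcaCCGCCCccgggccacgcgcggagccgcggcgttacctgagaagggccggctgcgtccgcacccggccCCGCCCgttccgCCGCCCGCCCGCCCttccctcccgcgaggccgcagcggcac
REV3L, second start, chr6:111483219-111483468, minus strand: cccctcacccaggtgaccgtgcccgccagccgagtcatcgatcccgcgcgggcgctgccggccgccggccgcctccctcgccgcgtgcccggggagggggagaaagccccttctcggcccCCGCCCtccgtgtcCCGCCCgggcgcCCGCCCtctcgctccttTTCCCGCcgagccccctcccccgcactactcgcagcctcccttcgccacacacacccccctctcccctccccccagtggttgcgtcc
REV1, chr2:99490018-99490267, minus strand: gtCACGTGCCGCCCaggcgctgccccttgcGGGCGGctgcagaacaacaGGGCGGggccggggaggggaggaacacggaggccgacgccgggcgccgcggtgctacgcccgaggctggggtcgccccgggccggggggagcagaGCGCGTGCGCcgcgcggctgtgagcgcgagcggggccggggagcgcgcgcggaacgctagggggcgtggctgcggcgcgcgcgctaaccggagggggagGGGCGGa
POLK, chr5:75511641-75511890, plus strand: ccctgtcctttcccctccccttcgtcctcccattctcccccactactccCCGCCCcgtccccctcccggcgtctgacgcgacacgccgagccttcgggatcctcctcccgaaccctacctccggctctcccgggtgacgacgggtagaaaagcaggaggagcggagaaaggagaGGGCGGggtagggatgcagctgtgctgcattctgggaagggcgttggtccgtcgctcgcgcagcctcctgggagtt
POLH, chr6:43575935-43576184, plus strand: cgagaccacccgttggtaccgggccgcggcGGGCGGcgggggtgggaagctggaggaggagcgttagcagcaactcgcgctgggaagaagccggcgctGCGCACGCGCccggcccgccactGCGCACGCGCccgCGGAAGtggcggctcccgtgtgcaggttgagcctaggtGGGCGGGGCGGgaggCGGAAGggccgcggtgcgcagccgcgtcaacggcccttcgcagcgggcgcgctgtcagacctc

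All of these start regions are GC-rich: 78.4% and 77.2% of bases are G or C at the REV3L starts, 80.8% at REV1, 67.2% at POLK and 76.0% at POLH, against a median of 58.0% over 35116 RefSeq promoters of the same length. Among the other members the share ran from 48.4% at POLQ and 56.8% at RAD18 to 81.6% at a MAD2L2 start. A gene was counted for a motif if any of its starts held it (REV3L and MAD2L2 have 2 starts each), while the shares over all promoters are per start. The GC box was found in 8 of the 9 genes, POLI being the exception, and in 42.6% of all promoters. It lay at both REV3L starts, with 6 matches at the first and 3 at the second, and in REV1 (4), POLK (2) and POLH (3). Of the other members, PRIMPOL held 9 matches, the MAD2L2 starts 3 and 5, and POLQ and RAD18 1 each. ETS cores were found in 4 of the 9 genes (16.5% of all promoters), E2F cores in 3 (5.52%), NRF1 cores in 3 (5.07%), E boxes in 2 (6.34%) and a CCAAT box in 1 (32.0%). Among the genes printed above, only POLH held ETS cores, only the second REV3L start an E2F core and only REV1 an E box, while POLK held no motif of the 6 but the GC box. These matches describe letters in a window and not sites that a factor binds.

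RAD18, the ubiquitin ligase that marks PCNA at stalled forks, did not pass the test. Its gene (ENSG00000070950) lies at 8775402 to 8963773 on the minus strand of chromosome 3 (GRCh38). It had 52.4, 53.9 and 49.7 CPM in the cisplatin libraries, against 58.3, 61.5 and 57.9 CPM in the PBS libraries. The groups did not overlap, but the log2 fold change was -0.19 ± 0.08 (SE; edgeR adjusted p = 0.0701, unadjusted 0.0296). The fold was 0.876, with a 95% interval of 0.780 to 0.985.

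Among 18 genes of PCNA ubiquitination and its reversal, 1 rose, 4 fell and 13 did not pass, with a median log2 fold change of -0.14. This and the lists below are to be read against 18.9% higher and 19.3% lower over all genes. UBE2A, a ubiquitin-conjugating enzyme that works with RAD18, rose to 88.1 ± 5.21 CPM with cisplatin, against 69.9 ± 0.965 CPM with PBS (log2 fold change 0.33, edgeR adjusted p = 0.00436). The other conjugating enzyme, UBE2B, averaged 92.9 CPM with cisplatin and 85.3 CPM with PBS (edgeR adjusted p = 0.279). Those that fell include SHPRH, a ligase that extends the ubiquitin chain on PCNA, with 16.7 ± 0.940 CPM under cisplatin and 29.3 ± 4.33 CPM under PBS (log2 fold change -0.81, edgeR adjusted p = 3.16e-04). USP7, a deubiquitinase, fell by 0.43 on the log2 scale (edgeR adjusted p = 5.08e-04). The substrate of the pathway, PCNA, fell to 139 ± 7.6 CPM with cisplatin, against 165 ± 3.60 CPM with PBS (edgeR adjusted p = 0.0160, SD, n = 3 each). The PCNA call was lost without cisplatin replicate 1 (edgeR adjusted p = 0.0909), without cisplatin replicate 3 (0.0625) and without PBS replicate 1 (0.05003). On exonic overlap, 18.1% of UBE2A is shared with NKRF and 10.1% of SHPRH with the antisense gene AL356599.1, both on the opposite strand. DTL, which directs PCNA-bound proteins to degradation, was the other gene of the list that fell (-0.26, edgeR adjusted p = 0.0371), and was named after its value was seen. USP1, which removes ubiquitin from PCNA, averaged 92.9 CPM with cisplatin and 117 CPM with PBS and did not pass (edgeR adjusted p = 0.0734).

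The Y-family polymerases, which insert bases opposite lesions, include REV1 and POLK, which fell, and POLH and POLI, which did not pass. Differences between these genes were not tested. POLH (ENSG00000170734, chromosome 6, 43576150 to 43615660, plus strand) had 20.8, 17.6 and 19.3 CPM with cisplatin, against 18.3, 20.4 and 20.1 CPM with PBS. Its groups were intermixed and its means were 19.3 ± 1.6 CPM with cisplatin and 19.6 ± 1.14 CPM with PBS (SD, n = 3 each). The fold was 0.978 with a 95% interval of 0.835 to 1.15 (edgeR adjusted p = 0.834). After the length correction described below, the log2 fold change was 0.21 with a 95% interval of -0.02 to 0.43. The gene tables list a copy named POLHP1, and reads shared with it could be split between them.

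POLI (ENSG00000101751, chromosome 18, 54269404 to 54321266, plus strand), which inserts opposite a range of lesions with low accuracy, had 14.8, 15.3 and 14.3 CPM with cisplatin. In the PBS libraries it had 14.5, 18.1 and 18.8 CPM. PBS replicate 1 lay among the cisplatin libraries and the other two PBS libraries above them, and the difference did not pass (log2 fold change -0.22 ± 0.12 SE, edgeR adjusted p = 0.165).

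REV1 (ENSG00000135945, chromosome 2, 99400475 to 99490035, minus strand) inserts deoxycytidine and also serves as the scaffold that brings the other Y-family enzymes and polymerase zeta together. It had 33.9, 30.9 and 32.4 CPM with cisplatin, against 39.5, 42 and 44.1 CPM with PBS. Every cisplatin library was below every PBS library, and the log2 fold change was -0.37 ± 0.09 (SE; edgeR adjusted p = 0.00489; fold 0.772, 95% interval 0.678 to 0.878). The call held without any one library and after a correction for transcript length (-0.38, edgeR adjusted p = 0.00384), but not with limma on log2(TPM + 1) (-0.30, adjusted p = 0.187). In GENCODE 29, 11% of the exonic bases of REV1 overlap EIF5B on the opposite strand, whose own log2 fold change was -0.16 (edgeR adjusted p = 0.305).

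POLK (ENSG00000122008, chromosome 5, 75511756 to 75601144, plus strand), which copies past bulky minor-groove adducts and extends mismatched ends, was lower in every cisplatin library. Its counts were 57, 97 and 144 with cisplatin and 92, 206 and 147 with PBS, equal to 5.68, 8.64 and 8.65 CPM with cisplatin and 10.3, 13.5 and 10.2 CPM with PBS. Among the cisplatin libraries replicate 1 was the lowest, and PBS replicate 2 stood above the other PBS libraries. POLK fell by 0.56 ± 0.18 on the log2 scale (SE; edgeR adjusted p = 0.0259), with a fold of 0.678 and a 95% interval of 0.519 to 0.886. The call was lost without cisplatin replicate 1 (-0.40, edgeR adjusted p = 0.1004) and without PBS replicate 2 (-0.39, edgeR adjusted p = 0.116). The call held after the length correction (-0.49, edgeR adjusted p = 0.0471) and narrowly missed with limma on log2(TPM + 1) (adjusted p = 0.0521).

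A further list of 9 genes held other repair and mitochondrial DNA polymerases with their subunits, together with HELQ, a helicase, and TENT4A and TENT4B, which encode noncanonical poly(A) polymerases. Of the 8 tested, 1 rose, 2 fell and 5 did not pass, with a median log2 fold change of -0.07. POLN was not tested because its counts were too low. POLL, a gap-filling polymerase of base excision repair and end joining, rose to 37.9 ± 2.56 CPM with cisplatin, against 27.4 ± 1.74 CPM with PBS (log2 fold change 0.47, edgeR adjusted p = 0.00193). It shares 4.48% of its exonic bases with DPCD on the opposite strand, which was higher too (0.62, edgeR adjusted p = 0.00144). TENT4A fell by 0.31 on the log2 scale (edgeR adjusted p = 0.00697). POLG2, the accessory subunit of the mitochondrial DNA polymerase, fell by 0.37 (edgeR adjusted p = 0.0192). Without cisplatin replicate 1, cisplatin replicate 2, PBS replicate 1 or PBS replicate 3, the adjusted p of POLG2 was 0.0662, 0.0542, 0.0514 or 0.0551 in edgeR, and it was 0.0567 in DESeq2.

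Of the subunits of polymerase zeta, the catalytic subunit gene REV3L fell, and MAD2L2, which encodes its accessory subunit REV7, did not pass. REV3L (ENSG00000009413, chromosome 6, 111299028 to 111483715, minus strand) had 34.2, 28.7 and 35.5 CPM with cisplatin, against 45.4, 57.2 and 46.7 CPM with PBS. The groups were separate, with PBS replicate 2 the highest library and cisplatin replicate 2 the lowest. REV3L fell by 0.60 ± 0.11 on the log2 scale (SE; edgeR adjusted p = 0.00138), with a fold of 0.658 and a 95% interval of 0.556 to 0.778. The call held without any one library. It was lost after a correction for transcript length (-0.21, edgeR adjusted p = 0.135) and narrowly missed with limma on log2(TPM + 1) (-0.53, adjusted p = 0.0530). Of its exonic bases, 4.64% overlap the antisense gene AL080317.3 and 0.942% overlap TRAF3IP2-AS1. Both of these were themselves lower with cisplatin (log2 fold changes -0.84 and -0.82, edgeR adjusted p = 0.0456 and 0.00741).

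MAD2L2 (ENSG00000116670, chromosome 1, 11674480 to 11691650, minus strand) had 99.4, 109 and 104 CPM with cisplatin, against 106, 98.4 and 84.3 CPM with PBS. The groups overlapped, and the log2 fold change of 0.12 ± 0.09 did not pass (SE; edgeR adjusted p = 0.314), with a 95% interval of the fold from 0.950 to 1.24. Set per transcript length, the ratio of MAD2L2 to REV3L mRNA in TPM was 34.5, 56.9 and 37.8 with cisplatin and 30.02, 24.9 and 25.2 with PBS. Every cisplatin ratio was above every PBS ratio, and the means were 43.1 ± 12.1 with cisplatin and 26.7 ± 2.89 with PBS (SD, n = 3 each). The log2 ratio was 0.66 higher with cisplatin. It sets a short gene against a long one, and after the length correction the log2 fold changes were -0.07 for MAD2L2 and -0.21 for REV3L, neither of which passed. A two-sided exact permutation test gave p = 0.1, the smallest that 3 against 3 libraries can give.

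Polymerase zeta shares accessory subunits with the replicative polymerase delta. Of 12 genes for these subunits and the replicative polymerases, 2 rose, 1 fell and 9 did not pass, with a median log2 fold change of -0.03. The shared subunits POLD2 and POLD3 averaged 267.1 CPM and 99.8 CPM with cisplatin and 267.2 CPM and 105 CPM with PBS, and neither passed (edgeR adjusted p = 0.998 and 0.461). POLD4, the smallest subunit of polymerase delta, rose to 14.1 ± 1.67 CPM with cisplatin, against 6.78 ± 0.744 CPM with PBS (log2 fold change 1.06, edgeR adjusted p = 1.97e-04). That gene shares 21.3% of its exonic bases with AP003419.1 on the same strand, which was also higher (1.38, edgeR adjusted p = 7.57e-05), so reads could be split between them. POLE4, a histone-fold subunit of polymerase epsilon, rose by 0.44 (edgeR adjusted p = 0.0108). POLA1, the catalytic subunit of the polymerase that starts new strands, fell by 0.38 (edgeR adjusted p = 0.00303).

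REV7 also serves in the shieldin complex, which protects broken ends from resection, and in mitotic control. Among 10 REV7 partners, 1 rose, 2 fell and 7 did not pass, with a median log2 fold change of 0.0035. SHLD2, the shieldin subunit that binds single-stranded DNA, fell to 22.8 ± 2.97 CPM with cisplatin, against 43.7 ± 0.567 CPM with PBS (log2 fold change -0.93, edgeR adjusted p = 4.58e-05). It shares 10.9% of its exonic bases with GLUD1 on the opposite strand, which was lower too (-0.46, edgeR adjusted p = 0.00255), and the gene tables list the copies SHLD2P1, SHLD2P2 and SHLD2P3. RIF1, which recruits shieldin to breaks, fell by 0.61 (edgeR adjusted p = 0.00330), a call lost under the length correction (-0.23, edgeR adjusted p = 0.168). MAD2L1BP, which helps an ATPase remodel REV7, rose by 0.41 (edgeR adjusted p = 0.0175), and missed the threshold without cisplatin replicate 2 (0.0520). SHLD1 and SHLD3 averaged 10.5 CPM and 2.09 CPM with cisplatin and 9.90 CPM and 2.10 CPM with PBS and did not pass.

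POLQ, the polymerase of theta-mediated end joining (ENSG00000051341, chromosome 3, 121431427 to 121546641, minus strand), had 31.9, 31.8 and 31.4 CPM with cisplatin. The PBS libraries had 34.3, 36.5 and 31.7 CPM. PBS replicate 3 lay within the narrow cisplatin range, and the log2 fold change of -0.11 ± 0.09 did not pass (SE; edgeR adjusted p = 0.347; fold 0.927, 95% interval 0.812 to 1.06).

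Of 17 genes that act with POLQ in end joining, 1 rose, 6 fell and 10 did not pass, with a median log2 fold change of -0.11. RHNO1, which with the checkpoint clamp recruits POLQ to breaks in mitosis, rose to 76.9 ± 1.08 CPM with cisplatin, against 53.1 ± 2.00 CPM with PBS (log2 fold change 0.53, edgeR adjusted p = 2.39e-04). LIG3, a ligase of the pathway, fell to 72.4 ± 4.33 CPM with cisplatin, against 101 ± 1.83 CPM with PBS (-0.49, edgeR adjusted p = 4.61e-04). LIG3 shares 29.1% of its exonic bases with RFFL on the opposite strand, itself lower (-0.44, edgeR adjusted p = 0.00414). RBBP8, which encodes the resection factor CtIP, fell by 0.53 (edgeR adjusted p = 0.00105), and NBN, a subunit of the complex that starts resection, fell by 0.59 (edgeR adjusted p = 0.00313). The others that fell were RAD1, PARP1 and LIG1, named after their values were seen, with log2 fold changes of -0.26, -0.25 and -0.25.

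PRIMPOL, the primase and polymerase that reprimes beyond lesions (ENSG00000164306, chromosome 4, 184649613 to 184694963, plus strand), had 9.37, 8.82 and 9.43 CPM with cisplatin, against 8.49, 9.34 and 7.25 CPM with PBS. The ranges overlapped, and the log2 fold change of 0.14 ± 0.14 did not pass (SE; edgeR adjusted p = 0.457; fold 1.10, 95% interval 0.892 to 1.36). In GENCODE 29, 12.2% of its exonic bases overlap CENPU on the opposite strand, whose log2 fold change was 0.25 (edgeR adjusted p = 0.0601).

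Repriming is an alternative to fork reversal, and PRIMPOL binds RPA, the single-strand binding protein. Of 10 genes of fork reversal and RPA, 2 rose, 2 fell and 6 did not pass, with a median log2 fold change of 0.09. RPA3 rose to 46.9 ± 1.79 CPM with cisplatin, against 33.0 ± 5.31 CPM with PBS (log2 fold change 0.51, edgeR adjusted p = 0.00352). RPA2 rose by 0.22 (edgeR adjusted p = 0.0402), but its edgeR adjusted p was between 0.0514 and 0.180 on leaving out any library but cisplatin replicate 3. PARG, which removes poly(ADP-ribose), fell by 0.43 (edgeR adjusted p = 0.00261), and CLSPN, which encodes the fork protein claspin, fell by 0.35 (edgeR adjusted p = 0.00423). The gene tables list copies of RPA2, RPA3, PCNA, POLE4, RBBP8 and PARG, so counts of these genes could be split with them. Over all 6 lists, 8 of 75 tested genes rose, 17 fell and 50 did not pass, with a median log2 fold change of -0.06. These are 10.7% higher and 22.7% lower, against 18.9% and 19.3% of all genes tested.

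**Figure D2:**
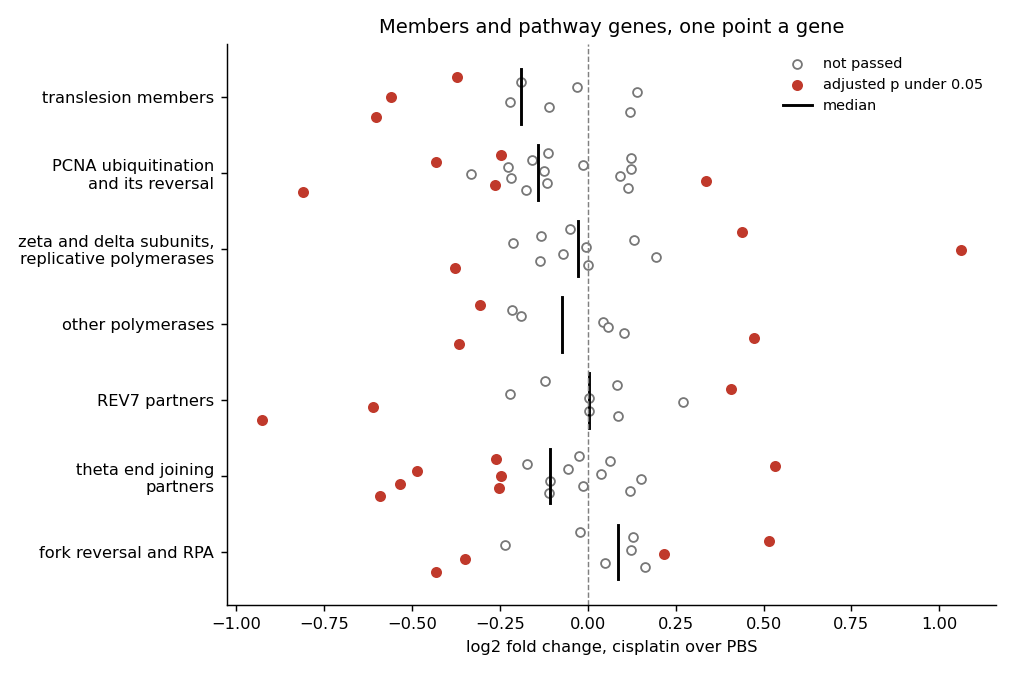
Log2 fold change, cisplatin over PBS, of the 9 genes and of the genes in the 6 pathway lists, 1 point per gene, with filled points for genes that passed the edgeR test and a vertical line at each median. The 9 genes have a median of -0.19 and none of them passed on the higher side, while each of the 6 lists holds genes that passed in both directions.

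Levels of the genes were compared per transcript length, in TPM (abundances scaled by transcript length). MAD2L2 was the most abundant, with 153 ± 7.49 TPM under cisplatin and 152 ± 6.75 TPM under PBS (SD, n = 3 each). REV1 followed with 16.2 ± 1.10 TPM under cisplatin and 20.3 ± 4.0 TPM under PBS, then RAD18 with 10.8 ± 1.24 TPM under cisplatin and 15.0 ± 1.14 TPM under PBS. POLI had 8.84 ± 0.307 TPM under cisplatin and 11 ± 1.20 TPM under PBS. PRIMPOL had 7.32 ± 1.07 TPM with cisplatin and 8.07 ± 2.28 TPM with PBS. Down to POLI, the libraries of neighbours in this order did not overlap in either group, while those of POLI and PRIMPOL did so in PBS and in cisplatin.

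The other 4 genes formed a group with the lowest means, whose order differed between treatments. Its libraries lay below those of PRIMPOL with cisplatin. With PBS, PRIMPOL at 6.20 to 10.61 TPM overlapped POLQ and also POLH, at 3.20 to 7.49 TPM. With cisplatin POLQ had 4.38 ± 0.456 TPM, POLH 3.96 ± 1.53 TPM, REV3L 3.68 ± 0.768 TPM and POLK 2.7 ± 0.711 TPM. With PBS REV3L came first with 5.72 ± 0.350 TPM, before POLQ with 5.42 ± 1.10 TPM, POLH with 4.88 ± 2.29 TPM and POLK with 4.41 ± 0.339 TPM. Neighbours within this group overlapped in both treatments. POLK nevertheless lay wholly below POLQ in both, at 1.97 to 3.39 TPM against 3.88 to 4.77 TPM for POLQ with cisplatin and at 4.02 to 4.65 TPM against 4.69 to 6.69 TPM with PBS.

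The log2 fold change varied with transcript length over the whole transcriptome, and the 9 genes span a wide range of lengths. Among genes under 1 kb the median log2 fold change was 0.24, with 33.0% higher and 7.88% lower. In the classes of 1 to 2 kb, 2 to 4 kb and 4 to 8 kb the medians were 0.13, -0.04 and -0.22. Among the 336 genes of 8 kb and over the median was -0.39, with 3.27% higher and 59.8% lower. REV3L, at a mean deposited length of 9688 bases, belongs to this longest class. MAD2L2 at 1032 bases and PRIMPOL at 1583 bases, the only members with log2 fold changes above 0, are the shortest of the 9. POLI (2044 bases), REV1 (2507) and POLK (3198) lie in the 2 to 4 kb class, and RAD18 (4979), POLH (5540) and POLQ (7592) in the 4 to 8 kb class. The part of length in each change was not tested.

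**Figure D3:**
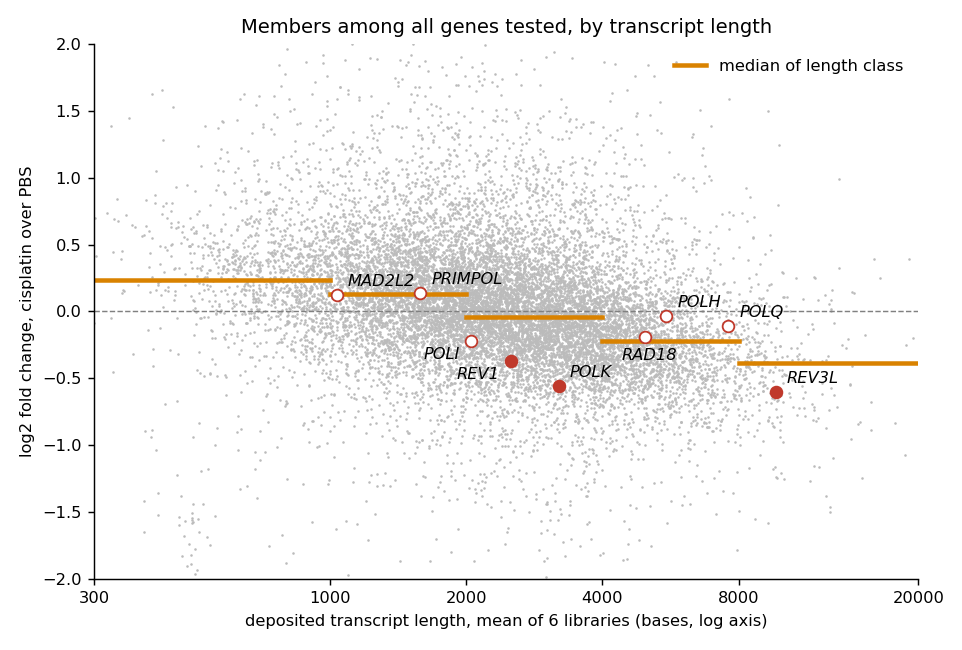
Log2 fold change, cisplatin over PBS, against the mean deposited transcript length in bases on a log axis, with 1 grey point per tested gene, orange lines for the median of each length class and the 9 genes named (filled where they passed the edgeR test). The cloud slopes downward with length. REV1, POLK, POLI and REV3L lie below the median of their length class, MAD2L2 just below it and the other members above it. The axes leave out 115 genes.

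When each library's dependence on length was removed by a smooth offset before the edgeR test, 2 of the 9 genes remained lower, REV1 and POLK. Over all genes 16.7% were lower and 17.2% higher in that fit. The median log2 fold change of the 9 was -0.07. None was higher at the adjusted threshold, and 1, POLQ, had an unadjusted p under 0.05 on the higher side (log2 fold change 0.22, edgeR adjusted p = 0.0695). POLH was at 0.21 (edgeR adjusted p = 0.139), RAD18 at 0.01 (0.924), POLI at -0.28 (0.0850), MAD2L2 at -0.07 (0.479) and PRIMPOL at 0.03 (0.908), and none of these passed. Of the list genes called before the correction, DTL, POLE4, TENT4A, RIF1, MAD2L1BP, PARP1, RPA2 and CLSPN also missed the threshold in this fit. Called only in this fit were UBE2V2 (-0.37), TIPIN (-0.39), NPLOC4 (0.27) and TP53BP1 (0.23), named after their values were seen. Over all pathway lists the genes called went from 8 to 7 higher and from 17 to 14 lower.

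**Figure D4:**
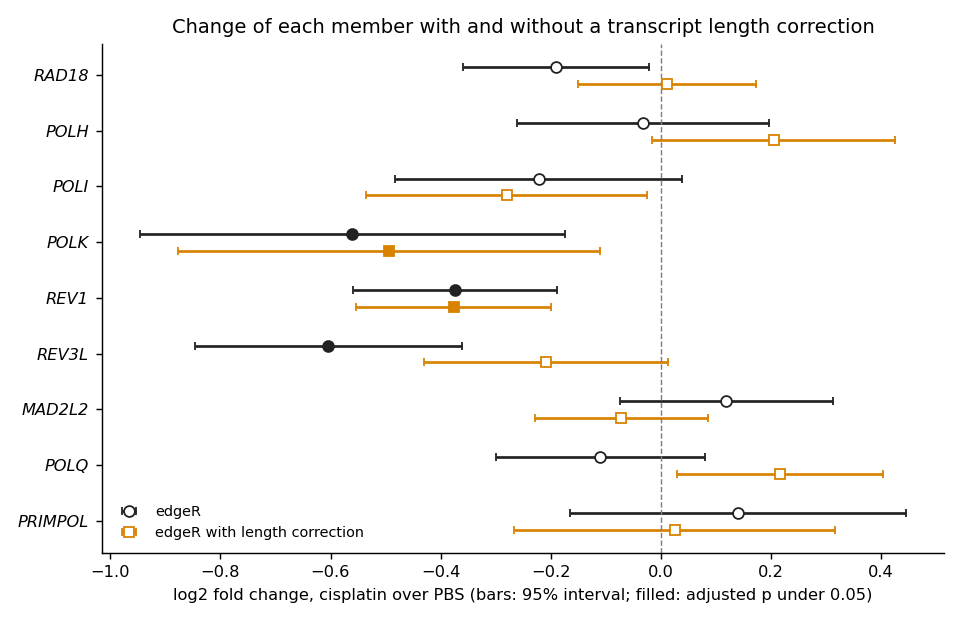
Log2 fold change, cisplatin over PBS, of each of the 9 genes with its 95% interval, before and after the length correction. Filled points passed the edgeR test: REV3L, POLK and REV1 before the correction, and POLK and REV1 after it, with REV3L at -0.60 before and -0.21 after.

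The deposited length of a gene is weighted by the isoforms estimated in each library. It varies with the error of these estimates as well as with isoform use, and these were not told apart. RAD18 had lengths of 5067, 5181 and 5670 bases with cisplatin, against 4433, 4870 and 4652 bases with PBS. Its cisplatin libraries were all longer, by 654 bases in the mean, and a two-sided exact permutation test gave p = 0.1, the smallest possible, and 0.9 after Benjamini-Hochberg adjustment over the 9 genes. No other member separated by group: the exact p was 0.2 for MAD2L2, 0.3 for REV1, 0.6 for POLK and PRIMPOL, 0.8 for POLQ, 0.9 for POLH and REV3L and 1 for POLI.

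POLH varied most, with 4113, 6260 and 6639 bases under cisplatin and 2869, 6870 and 6492 bases under PBS. Replicate 1 of each treatment had the shorter estimate, and the largest of the 6 was 2.39 times the smallest. The TPM of POLH followed this, with 5.73, 3.06 and 3.09 TPM under cisplatin and 7.49, 3.20 and 3.94 TPM under PBS, although its CPM was level. GENCODE 29 lists 3 POLH transcripts of at most 3540 bases, shorter than most of these lengths, so the annotation the authors counted with differs from it at this gene. The ratio of longest to shortest estimate was 1.58 for PRIMPOL, 1.54 for POLQ and between 1.01 and 1.28 for the others.

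**Figure D5:**
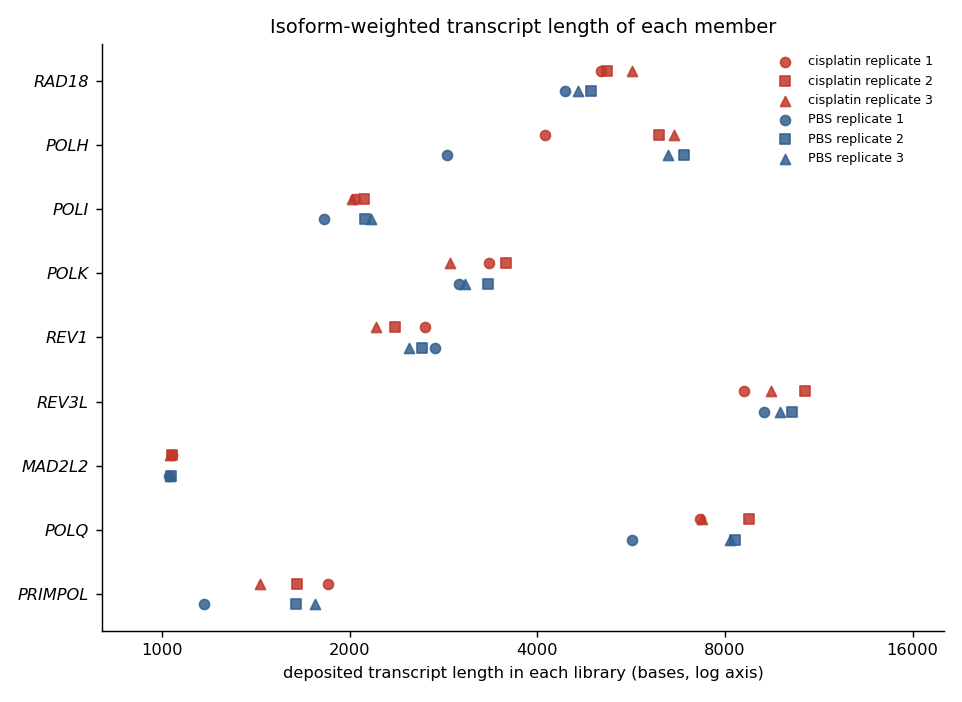
Isoform-weighted transcript length in bases (log axis) of each of the 9 genes, 1 point per library, for the 3 cisplatin and 3 PBS libraries. RAD18 alone has every cisplatin library above every PBS library, and POLH has the widest spread, with replicate 1 of both treatments lowest.

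The genes whose pattern over the 6 libraries was most like that of REV3L and POLH were found among 10540 protein-coding genes of at least 5 CPM. Likeness was the root mean square difference of log2 CPM, each gene centred on its mean. For REV3L these were ZFP14 (0.0474), ZBTB24 (0.0503) and MYSM1 (0.0526), whose log2 fold changes were -0.60, -0.64 and -0.57. They were picked for this likeness, so these values are a description. ZFP14 was at -0.40 after the length correction and at -0.01 on log2(TPM + 1). For POLH they were GATC (0.0230), TXNDC16 (0.0288) and MTERF2 (0.0298), whose log2 fold changes of -0.02, -0.0011 and -0.06 did not pass. Counts of GATC may hold reads of SRSF9, which overlaps 39.1% of its exonic bases on the opposite strand.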

How the data were processed

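RNA-seq of 6 NCI-H520 libraries was used, 3 cisplatin and 3 PBS, grouped by the treatment in the labels. The authors deposited a table per library with expected counts per gene (not normalized, need not be whole), TPM values (abundances scaled by length), isoform-weighted lengths and effective lengths. These are RSEM columns, per the file headers. STAR 2.7.9 and GRCh38 are named in the submitters' processing notes; for quantifier version, annotation release and strand use, the sources used here give nothing, so reads of overlapping genes on opposite strands cannot be told apart.

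Expected counts were rounded and tested in edgeR 4.0.16 (R 4.3.3) with filterByExpr (count minimum 10, total 15), TMM scaling, the quasi-likelihood test on treatment alone and Benjamini-Hochberg adjustment over the 15063 genes tested; a gene was called at an adjusted p under 0.05. A standard error is the log2 fold change divided by the root of F. CPM use TMM-adjusted totals, 9121180 to 16724300 expected counts before adjustment, which set the precision. Symbols were found for 61399 of 61552 genes, and GENCODE 29 gave 58352 positions and the exonic overlaps. The length correction subtracts from each library a lowess curve (span 0.5) of its log2 CPM, centred per gene, on log2 effective length. Exact permutation tests over 6 libraries compared lengths and the MAD2L2 to REV3L ratio. The code was tested on simulated data. Libraries of a group differed beyond sampling noise (chi-square per degree of freedom 2.98 to 21.2).

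The 9 genes and all lists were chosen with earlier results of these data known. The text names every member, from each list up to 3 called genes a direction by smallest adjusted p, and the 3 genes most like REV3L and POLH; others are marked as chosen after their values were seen. USP1, UBE2B, POLD2, POLD3, SHLD1 and SHLD3 were added for their roles. Promoters are from RefSeq (GRCh38.p14). Alternatives covered RLE, upper-quartile and total-count scaling, low-count filters, DESeq2 1.42.0, limma-voom and limma 3.58.1 on log2 TPM, a 1.5-fold threshold (glmTreat), the length correction, nuclear protein-coding genes alone, a replicate block and leaving out each library.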

Additional observations from a re-analysis of the deposited data

How the results depend on the processing

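The 5752 genes called, 2851 higher and 2901 lower, became 2861 (1208 higher, 1653 lower) with limma on log2(TPM + 1), 2815 (1186 and 1629) on log2(TPM + 0.1) and 481 (304 and 177) against a 1.5-fold threshold in glmTreat, which asks for a larger change. The 3 members called lower became 0, 1 and 0 under these settings, with 3, 3 and 0 at an unadjusted p under 0.05; the 1 was RAD18 (-0.47, limma adjusted p = 0.0488). Pathway genes called higher, 8 in all, became 5, 5 and 1, and those called lower, 17, became 11, 11 and 1. The cause of the lower counts on TPM was not tested. Under the other scalings, filters and tools the members called lower stayed at 3, and at 2 with the length correction. By effective length the MAD2L2 difference was 15.8 bases, against 5.93 by deposited length. Over the named genes, 608 results under an alternative kept their side of the threshold, 75 lost the call, 1 gained it and 0 changed sign while called. Of the 608, 23 changed sign without a call, among them POLH, POLQ, RAD18 and MAD2L2 under the length correction.

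Leaving out each library in turn gave 4205 to 5283 genes called (2137 to 2718 higher, 2068 to 2595 lower), 2 to 3 members lower and 0 higher, 6 to 9 pathway genes higher and 12 to 17 lower. The length differences ran from -1010 to 1039 bases for POLH, -332 to -113 for REV1, -728 to 351 for REV3L, 4.33 to 8.03 for MAD2L2, -9.35 to 325 for POLK, -85.9 to 87.9 for POLI, -429 to 889 for POLQ, -58.1 to 238 for PRIMPOL and 472 to 774 for RAD18. The log2 ratio difference of MAD2L2 to REV3L ran from 0.44 to 0.80.

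A fit with the replicate number as a block called 5819 genes and 3 members lower. Same-numbered libraries deviated together by correlations of 0.0658, 0.123 and -0.0760. The labels give no pairing, and values from 3 libraries a group cannot tell whether same-numbered samples shared a culture or batch. POLK and PRIMPOL had the fewest counts of the 9 genes, 57 to 206 and 76 to 157 per library.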
